A study of Arabidopsis thaliana with 4 samples.

Results

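The aquaporins of Arabidopsis thaliana are a family of 35 genes, and all 35 were found by locus code among the 27416 gene models of both tables. They are named by subfamily, group and number, as in PIP1-3, also written PIP1;3. They divide into 13 plasma membrane intrinsic proteins (PIP), 10 tonoplast intrinsic proteins (TIP), 9 NOD26-like intrinsic proteins (NIP) and 3 small basic intrinsic proteins (SIP). The genes were taken by family membership and not by expression, but the choice was made with earlier results of these data known. Whole Col-0 seedlings of the wild type (WT) and of a mutant in PHYB, the gene of the red-light receptor phytochrome B (phyB), were compared after 4.5 days of growth. Both genotypes had received a cold period of 4 days as seeds, 12 h of white light and then 4 days of red light of 60 μmol per m2 per s, on medium with 1% sucrose. The labels name no phyB allele, no root or shoot separation and no time of harvest. The labels list 2 samples per genotype, but each genotype has 1 column of values, so no value has a replicate check and no test between genotypes was possible.

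Aquaporins are membrane channels that assemble as tetramers, with a separate pore through each monomer, and let water and some small neutral solutes cross a membrane along a gradient. PIPs control much of the water permeability of the plasma membrane, TIPs that of the vacuole membrane, and both are abundant in growing and water-conducting tissues. NIPs carry boric acid, arsenite, glycerol or lactic acid in addition to or in place of water, and SIPs reside in the endoplasmic reticulum. Phytochrome B represses elongation of the hypocotyl, a kind of growth that depends on water uptake into the vacuole. The values describe which of these channel genes differed at the transcript level when phytochrome B was impaired.

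The pore of each channel is lined by 2 short loops, each of which usually carries an asparagine-proline-alanine (NPA) box. The coding sequences of the RefSeq annotation of TAIR10.1 show where members depart from it, and these bases are given for 5 members on which the results below turn. Each line holds 30 bases of spliced coding sequence, 5′ to 3′, with the 9 bases of the box in capitals.
PIP1-3, first box: ggtgggcacataAACCCAGCGgtgacattt
PIP1-3, second box: ggaacaggaattAACCCAGCTaggagtctt
TIP2-3, first box: ggtggtcaccttAACCCAGCCgtgactctt
TIP2-3, second box: ggtggctccatgAATCCAGCAaggtcgttc
NIP5-1, first box: ggggctcacctaAACCCATCActgaccata
NIP5-1, second box: ggtggatctatgAATCCTGTGagaactcta
NIP6-1, first box: ggggcacatctcAATCCGGCTgtaaccatt
NIP6-1, second box: tctgcttcgatgAACCCTGTAagaacactg
SIP2-1, first box: ggcgggctttatAATCCTTTGaccgctttg
SIP2-1, second box: ggtggatgcatgAACCCTGCAgctgttatg

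Both boxes end in an alanine codon (GCN) in 27 of the 35 members, among them all PIPs and TIPs. The 8 others are NIP1-1, NIP1-2, NIP5-1, NIP6-1, NIP7-1 and the 3 SIPs. In the boric acid channels NIP5-1 and NIP6-1 the second box ends in a valine codon (GTG and GTA), and in NIP5-1 the first box ends in a serine codon (TCA). In SIP2-1 the first box ends in a leucine codon (TTG).

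In WT the family took 2.70% of all reads, and in phyB 2.40%. The summed level, in RPKM (reads normalised to coding length and to the reads of the column), was 32733 in WT and 29166 in phyB. TIPs gave 40.7% of the WT sum, PIP2 genes 29.5%, PIP1 genes 29.0%, SIPs 0.443% and NIPs 0.336%. TIP1-2 had the highest level of the family, 7351 RPKM in WT against 7505 RPKM in phyB. It was the fourth most abundant of 27206 nuclear gene models in WT and the fifth in phyB. It was followed in WT by PIP1-2 (4298 RPKM), PIP2-1 (3854 RPKM) and PIP2-7 (2292 RPKM). In phyB PIP1-2 and PIP2-1 again came next, but PIP1-1 (2047 RPKM) and PIP2-2 (1875 RPKM) stood above PIP2-7 (1710 RPKM). Levels of PIP1-3, PIP2-2 and PIP1-1 in WT, between 2105 and 2136 RPKM, were not separable from their neighbour within 95% counting intervals. At least 1000 RPKM in WT were reached by 11 members.

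**Figure D1:**
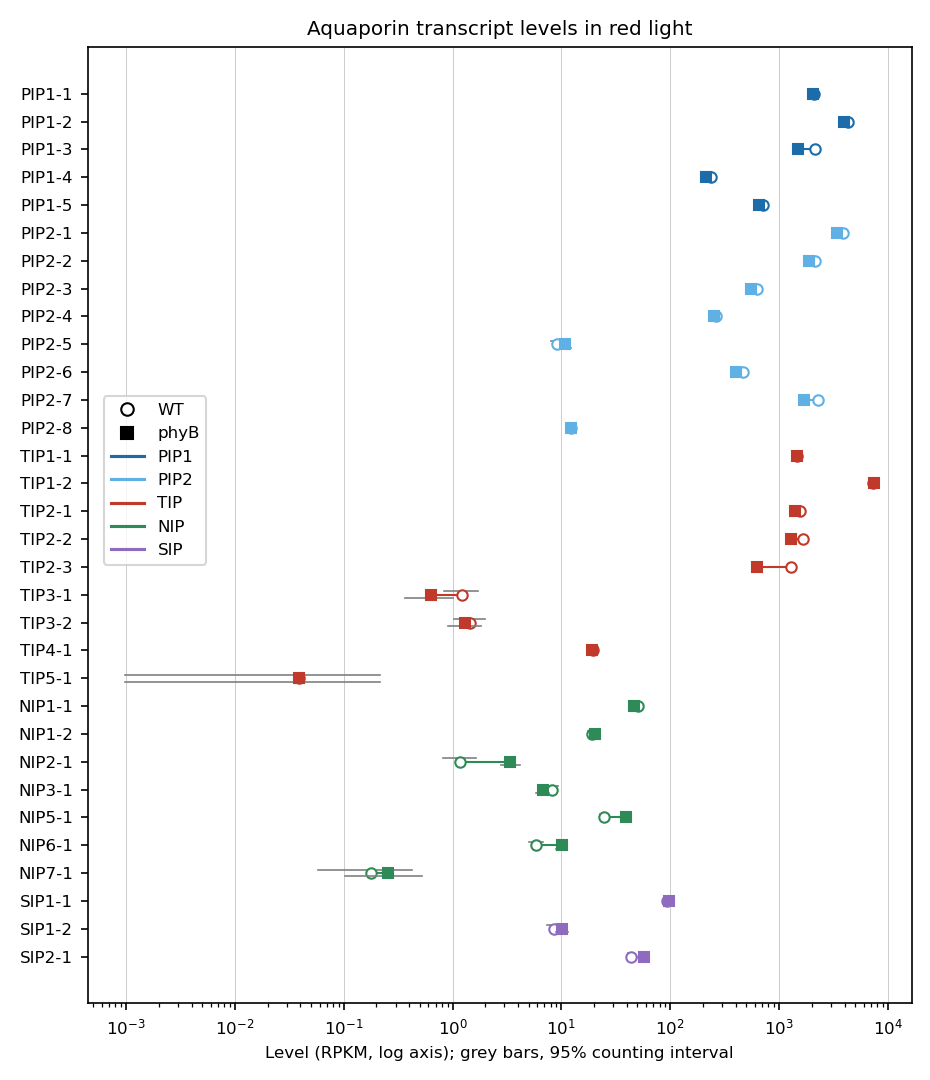
Level of each aquaporin (RPKM, log axis) in WT (open circles) and phyB (filled squares), with grey bars for the 95% counting interval of each value. The 3 members at 0 reads in both genotypes are not drawn. Levels span from TIP5-1 at 0.0387 RPKM to TIP1-2 at 7351 RPKM in WT, and the pairs of points lie close together for most members.

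At the other end, TIP1-3, NIP4-1 and NIP4-2 had 0 reads in both genotypes, which allows levels of up to 0.118 RPKM for TIP1-3 and 0.105 RPKM for the NIP4 genes in WT (3 reads). TIP5-1 had 1 read in each genotype. NIP7-1 had 5 reads in WT and 7 in phyB. TIP1-3, TIP5-1, NIP4-1 and NIP4-2 are known from pollen and NIP7-1 from anthers. Of 4 pollen marker genes, VGD1 and PPME1 had 0 reads in both genotypes, AGP11 had 1 and 7 reads, and AGP6 had 7 and 8 reads. The seed aquaporin TIP3-1 had 33 and 17 reads. With these 6 genes below a mean of 1 RPKM, 29 members remained for the comparison of genotypes.

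The genotypes differed little for most members. Of the 29 members, 1 was at least 2-fold higher in phyB (NIP2-1) and 1 at least 2-fold lower (TIP2-3), whereas 3.2% of the 19296 gene models of at least 1 RPKM on average were 2-fold higher and 2.18% 2-fold lower. At a 1.5-fold difference, 3 members were higher (NIP2-1, NIP5-1 and NIP6-1) and 1 was lower (TIP2-3), with 9.75% and 7.27% of all models as background. These shares put the count of large differences in the family near the background. Ratios below 0 were seen for 18 of the 29 members and for 51% of all models. The median log2 ratio of phyB over WT was -0.12 in the family and -0.01 over all models. For 21 of the 29 members the log2 ratio was within 0.3 of 0.

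Abundant members were mostly lower in phyB. Of the 16 members with at least 100 RPKM on average, all of them PIPs or TIPs, 14 had ratios below 0 and the median was -0.17. Among all 1937 models of that abundance, 36.8% had ratios below 0 and the median was 0.12. Of these 14, PIP1-1 turned to 0.01 with upper-quartile scaling. The 2 exceptions were TIP1-1 and TIP1-2. With a trend of the ratio on coding length across all models removed, their log2 ratios of 0.002 and 0.03 became -0.08 and -0.05. For each of the 14 lower members the 95% counting interval lay wholly below 0, which was so for 31.6% of the models of that abundance. The intervals cover counting error only and do not contain the variation between seedlings or libraries.

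**Figure D2:**
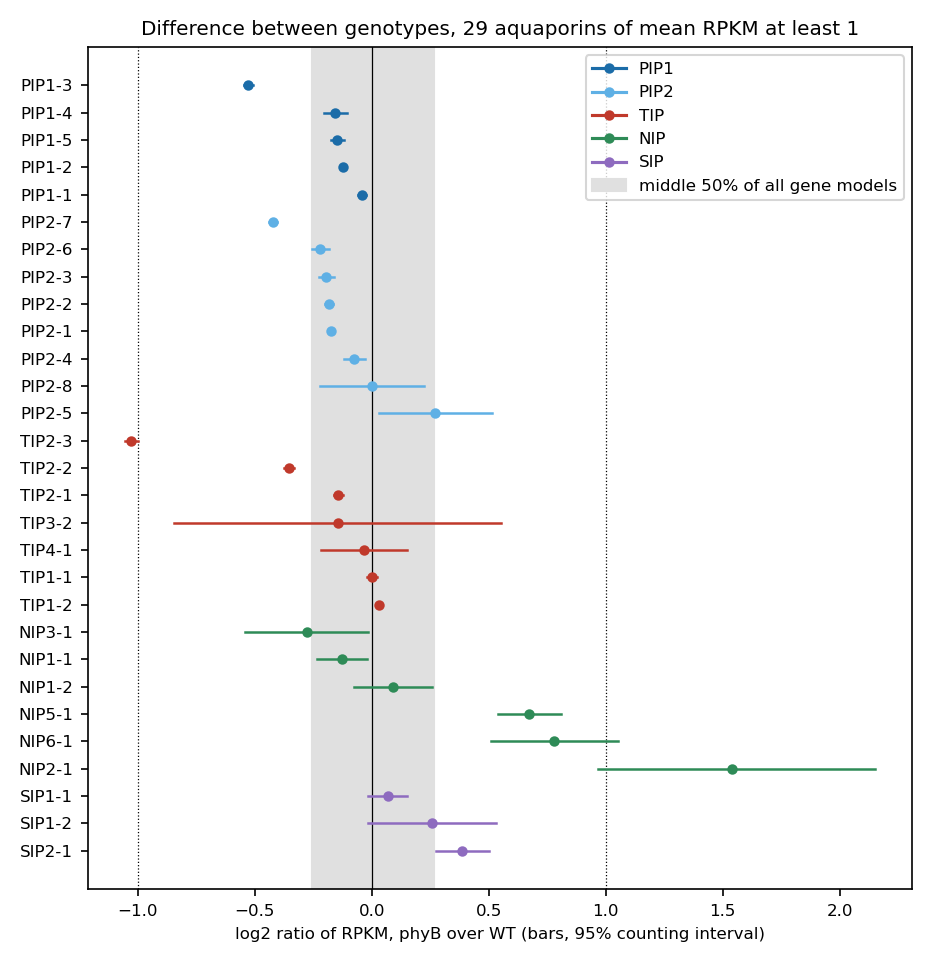
log2 ratio of RPKM, phyB over WT, for the 29 aquaporins of at least 1 RPKM on average, grouped by branch, with bars for the 95% counting interval. The grey band holds the middle 50% of all gene models (-0.25 to 0.26) and dotted lines mark 2-fold. TIP2-3 at -1.03 and NIP2-1 at 1.54 are the outermost members.

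PIP1 proteins reach the plasma membrane largely by pairing with PIP2 proteins. Ratios of all 5 PIP1 genes lay below 0, except PIP1-1 at 0.01 with upper-quartile scaling, and their median was -0.15. Among all models 51% had ratios below 0. PIP1-3 (AT1G01620; chromosome 1, 225665 to 227543 on the minus strand of TAIR10.1, 4 coding exons) had 2136 RPKM in WT against 1482 RPKM in phyB. Its log2 ratio of -0.53 (95% counting interval -0.55 to -0.51) was the lowest of the PIPs, and 8.83% of all models had a lower one. PIP1-2, the most abundant PIP, had 4298 RPKM in WT against 3944 RPKM in phyB, giving a log2 ratio of -0.12. PIP1-5 was at 718 and 648 RPKM (-0.15) and PIP1-4 at 238 and 214 RPKM (-0.16). PIP1-1 was at 2105 and 2047 RPKM, a log2 ratio of -0.04 (-0.06 to -0.02). The summed PIP1 level was 9495 RPKM in WT against 8335 RPKM in phyB, giving a log2 ratio of -0.19 (-0.19 to -0.18). Without PIP1-3, which was chosen for removal after its value was seen, the sum had a log2 ratio of -0.10. The difference between both sums, phyB minus WT, was -1161 RPKM with PIP1-3 and -507 RPKM without it.

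PIP2 proteins form highly water-permeable channels on their own. Of the 8 PIP2 genes 6 had ratios below 0, as did 51% of all models, with a median of -0.18 over all 8. PIP2-7 (AT4G35100; chromosome 4, 16708361 to 16710407, plus strand, 4 coding exons) had 2292 RPKM in WT against 1710 RPKM in phyB, giving a log2 ratio of -0.42 (-0.44 to -0.41). PIP2-1, a main water channel of roots and leaves, had 3854 and 3412 RPKM (-0.18). PIP2-6 was at 467 and 401 RPKM (-0.22) and PIP2-4, known from roots, at 265 and 252 RPKM (-0.07). The 2 least abundant PIP2 genes were not lower. PIP2-5 had 9.04 RPKM in WT against 10.9 RPKM in phyB, giving a log2 ratio of 0.27 with a wide interval of 0.03 to 0.51, and PIP2-8 had 12.2 RPKM in both (0.001, -0.22 to 0.22). The summed PIP2 level was 9656 RPKM in WT against 8221 RPKM in phyB, giving a log2 ratio of -0.23 (-0.24 to -0.22), or -0.18 without PIP2-7.

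PIP2-2 and PIP2-3 are tandem copies on chromosome 2, 2612 nt apart, and their coding sequences were 94.8% identical with an identical run of 242 nt. Of the 50-nt words in either coding sequence, 31.4% occur in the other, so the authors' counting could have divided reads between them. PIP2-2 had 2129 and 1875 RPKM and PIP2-3, first described as a desiccation-responsive gene (RD28), 627 and 549 RPKM. Their log2 ratios of -0.18 and -0.19 were close, and the summed reads of both gave -0.19. Among the other members only NIP2-1 and the NIP4 pair shared any 50-nt word with another coding sequence.

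Among the abundant vacuolar channels the TIP2 genes had lower ratios than TIP1-1 and TIP1-2, by the most for TIP2-3 and the least for TIP2-1. TIP1-1 and TIP1-2, the gamma-TIPs of elongated vegetative cells, were level between genotypes, with 1450 and 1452 RPKM for TIP1-1 and 7351 and 7505 RPKM for TIP1-2. All 3 TIP2 genes, which encode delta-type TIPs that also conduct ammonia, were lower in phyB, as were 51% of all models. TIP2-3 (AT5G47450; chromosome 5, 19248249 to 19249622, minus strand, 2 coding exons) had 1288 RPKM in WT against 632 RPKM in phyB. This was a 2.04-fold lower level, a log2 ratio of -1.03 (-1.055 to -0.9998), and 2.03% of all models had a lower ratio. TIP2-3 moved from rank 100 among nuclear models in WT to rank 240 in phyB. Its nearest relative TIP2-2, with 81.5% identity in the coding sequence and no shared 50-nt word, was at 1654 and 1294 RPKM (-0.35). TIP2-1 was at 1562 and 1415 RPKM (-0.14), and 35.9% of all models had a lower ratio. Of the TIP2-1 coding sequence, 6.11% lies under a long non-coding RNA gene on the opposite strand. TIP2 genes summed to 4504 RPKM in WT against 3340 RPKM in phyB, giving a log2 ratio of -0.43 (-0.44 to -0.42), against 0.03 (0.02 to 0.03) for TIP1 genes, both of whose expressed members lie below 0 with the trend on coding length removed.

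TIP4-1, known from roots, was at 19.7 and 19.3 RPKM (-0.03, -0.22 to 0.15). The seed gene TIP3-2 was at 1.45 and 1.31 RPKM, from 39 and 35 reads, and 47.1% of its coding sequence lies under a non-coding gene on the opposite strand. TIP3-1 had 1.22 and 0.634 RPKM, with a counting interval of the log2 ratio from -1.88 to -0.06. Of its coding sequence, 16.0% lies under AT1G73200, a protein-coding gene on the opposite strand with 1219 reads in WT and 882 in phyB. The log2 ratio of AT1G73200 was -0.45, and its part in the reads of TIP3-1 was not tested. All TIPs together gave 13327 RPKM in WT against 12319 RPKM in phyB, giving a log2 ratio of -0.11. Without TIP2-3, a removal chosen after its value was seen, this was -0.04, and the difference between both sums, phyB minus WT, went from -1009 to -353 RPKM.

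**Figure D3:**
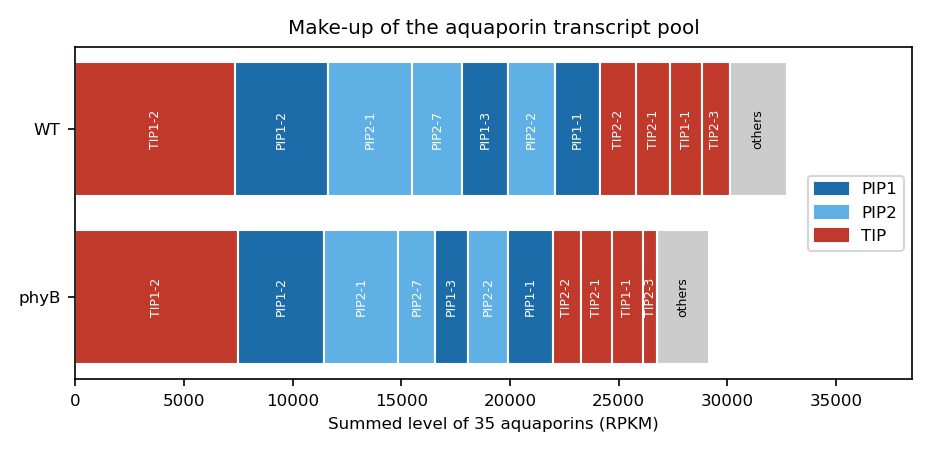
Summed level of all 35 aquaporins (RPKM, from 0) in WT and phyB, divided by gene and coloured by branch. The 11 members with at least 3% of the WT sum are named and the other 24 are grey. The share of TIP1-2 was 22.5% in WT and 25.7% in phyB, and that of TIP2-3 was 3.93% and 2.17%.

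Genes of the NIP subfamily had low levels, and 4 of the 6 measured ones had ratios above 0, as did 49% of all models. NIP5-1 (AT4G10380; chromosome 4, 6431161 to 6435396, minus strand, 4 coding exons), the boric acid channel of boron uptake in roots, had 24.5 RPKM in WT against 39.0 RPKM in phyB. It was 1.59-fold higher in phyB, a log2 ratio of 0.67 (0.54 to 0.81). NIP6-1 (AT1G80760; chromosome 1, 30350539 to 30352208, minus strand, 5 coding exons), which distributes boric acid to young leaves, had 5.85 and 10.0 RPKM. It was 1.72-fold higher, a log2 ratio of 0.78 (0.51 to 1.05). Both boric acid channels were thus higher in phyB, from 30.3 RPKM in sum in WT to 49.1 RPKM. Of all models, 92.4% had a ratio below that of NIP5-1 and 94.4% below that of NIP6-1.

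NIP2-1 (AT2G34390; chromosome 2, 14514487 to 14515988, minus strand), a lactic acid channel induced by low oxygen in roots, had 1.17 RPKM in WT against 3.40 RPKM in phyB. The values rest on 34 and 98 reads, and the 2.91-fold difference has a counting interval of 1.95 to 4.43. Its whole coding sequence lies under a non-coding gene on the opposite strand, and 17.6% of its 50-nt words occur in AT2G29870. That gene had 5 reads in WT and 9 in phyB. Without strand in the sources used here, reads of NIP2-1 and of the non-coding gene cannot be told apart. NIP1-1 and NIP3-1, known for arsenite transport, were at 51.0 and 46.7 RPKM (-0.13, -0.23 to -0.02) and at 8.19 and 6.76 RPKM (-0.28, -0.54 to -0.02). NIP1-2 was at 19.1 and 20.3 RPKM (0.09, -0.08 to 0.26). The subfamily sum was 110 RPKM in WT against 127 RPKM in phyB, giving a log2 ratio of 0.20 (0.14 to 0.27).

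Ratios of all 3 SIP genes lay above 0, except SIP1-1 at -0.02 with the trend on coding length removed, and their median was 0.26. Ratios above 0 were seen for 49% of all models, and of the SIPs only SIP2-1 had a counting interval wholly above 0. SIP2-1 (AT3G56950; chromosome 3, 21078297 to 21079925, minus strand, 4 coding exons) had 43.7 RPKM in WT against 57.2 RPKM in phyB, giving a log2 ratio of 0.39 (0.28 to 0.50). Of its coding sequence, 6.90% lies under genes on the opposite strand, namely CRD1 and a long non-coding RNA gene that has no values here. CRD1, a chlorophyll synthesis gene, was at 964 RPKM in WT against 881 RPKM in phyB. The log2 ratio of CRD1 was -0.13, and its part in the reads of SIP2-1 was not tested. SIP1-2 was at 8.48 and 10.1 RPKM (0.26, -0.02 to 0.53). SIP1-1, the most abundant of the 3, was at 92.9 and 97.4 RPKM (0.07, -0.02 to 0.15). The sum of the SIPs was 145 RPKM in WT against 165 RPKM in phyB, giving a log2 ratio of 0.18 (0.12 to 0.25).

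**Figure D4:**
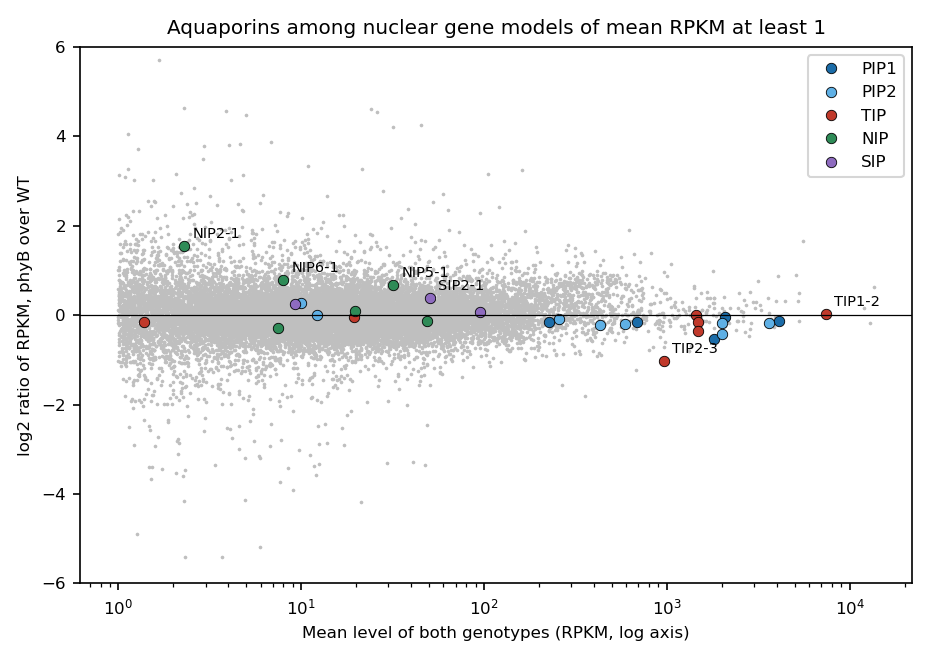
Mean RPKM of both genotypes (log axis) against the log2 ratio of phyB over WT. Grey points are nuclear gene models of at least 1 RPKM on average and coloured points are aquaporins by branch. The abundant PIPs and TIPs lie near or below 0, while NIP2-1, NIP6-1, NIP5-1 and SIP2-1 lie above 0 at lower levels.

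The 300 bases upstream of each annotated gene start were searched on both strands for letters bound by light-related factors. The G-box CACGTG was in none of the 35 windows and in 7.18% of 26709 windows of nuclear genes. The PBE-box CACATG, a variant known as a binding site of phytochrome-interacting factors, was in 12 of the 35 windows (34.3%) and in 13.1% of all windows. The shorter core ACGTG, which every G-box contains, was in 4 windows (11.4%) and in 25.8% of all. Windows of PIP2-7 and NIP6-1 are shown because both hold the PBE-box while the genes differ in opposite directions, and that of TIP2-3 because it has none of these letters and the lowest ratio. Capitals mark the PBE-box, and each window is written 5′ to 3′ on the strand of its gene.
PIP2-7, chr4:16708061-16708360, plus strand: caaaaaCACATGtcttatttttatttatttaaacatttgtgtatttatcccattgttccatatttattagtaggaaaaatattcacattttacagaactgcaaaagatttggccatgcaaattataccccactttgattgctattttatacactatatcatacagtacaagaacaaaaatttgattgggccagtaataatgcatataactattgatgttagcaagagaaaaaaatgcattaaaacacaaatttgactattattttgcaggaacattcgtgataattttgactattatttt
NIP6-1, chr1:30352209-30352508, minus strand: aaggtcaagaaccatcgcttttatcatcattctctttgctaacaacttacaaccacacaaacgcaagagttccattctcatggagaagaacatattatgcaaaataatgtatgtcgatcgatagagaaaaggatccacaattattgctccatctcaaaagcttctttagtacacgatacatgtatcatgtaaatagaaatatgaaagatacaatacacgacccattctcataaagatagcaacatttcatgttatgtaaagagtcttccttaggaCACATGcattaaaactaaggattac
TIP2-3, chr5:19249623-19249922, minus strand: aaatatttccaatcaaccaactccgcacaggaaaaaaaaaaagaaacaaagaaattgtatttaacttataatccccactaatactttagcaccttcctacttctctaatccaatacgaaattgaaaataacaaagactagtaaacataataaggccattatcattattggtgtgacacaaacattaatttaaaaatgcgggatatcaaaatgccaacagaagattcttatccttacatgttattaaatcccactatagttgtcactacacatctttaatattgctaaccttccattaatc

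Of the 10 measured members with a PBE-box in the window 5 had ratios below 0, and the median log2 ratio was -0.02. Of the 19 without one 13 had ratios below 0, with a median of -0.15. A match describes these letters only and is no evidence of binding, and its absence from 300 bases says nothing of the rest of the gene.

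Few genes that act with aquaporins differed 2-fold, and few did so among all models. Of the models of at least 1 RPKM on average, 3.2% were 2-fold higher and 2.18% 2-fold lower. Counts in lists as small as those below cannot be set apart from these shares. Of 11 genes for the trafficking, phosphorylation or turnover of PIPs, none was 2-fold higher and 1 was 2-fold lower, with a median of -0.17, or -0.055 with the trend on coding length removed. That gene was TSPO, a stress-induced membrane protein that draws PIP2-7 into autophagic degradation, at 14.7 RPKM in WT against 3.31 RPKM in phyB (-2.15, -2.56 to -1.76). SYP121 and SYP61, SNARE proteins that deliver PIPs to the plasma membrane, were at 0.05 and 0.29. Of 7 boron exporter genes 3 were measured and none differed 2-fold. BOR1, the xylem-loading exporter that works with NIP5-1, was at 54.4 and 74.98 RPKM (0.46, 0.40 to 0.52), the same sign as both boric acid channels. BOR2 and BOR3 were at -0.12 and -0.04, but at 0.02 and 0.11 with the trend on coding length removed. BOR4, a boron efflux gene below 1 RPKM on average, had 88 reads in WT and 30 in phyB (-1.54, -2.19 to -0.93), the opposite sign to BOR1. None of 8 measured plasma membrane proton pump genes differed 2-fold (median -0.13, but 0.059 with the trend on coding length removed), and AHA2, the most abundant, was at 537 and 551 RPKM (0.04). None of 4 tonoplast pump genes did so either (median -0.14, but 0.0038 with that trend removed), and the pyrophosphatase gene AVP1 was at 280 and 300 RPKM (0.10).

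Markers of organs and states also differed between the columns. In bulk samples fewer cells of a type and less RNA per cell cannot be told apart. Of 12 root markers 11 were measured and 10 had ratios below 0, with a median of -0.11, none at 2-fold and NRT2.1 at 0 reads. Their ratios ran from CASP5 at -0.75 to CASP1 at 0.09, and PYK10, the most abundant, was at 3280 and 2384 RPKM (-0.46). TIP2-3 was at -1.03, and the part of root proportion in that value was not tested. Ratios of 5 of 6 leaf and cotyledon markers lay below 0. The median was -0.13. LHCB1.3, with the highest mean, was at -0.18, and RBCS1A, the most abundant in phyB, was the exception at 0.17. All 11 dehydration markers lay below 0. Their median was -0.81, with 4 at least 2-fold lower, namely RD29B (-2.89), RD29A (-2.46), RAB18 (-2.15) and P5CS1 (-1.31). Of 8 seed markers EM6 (-3.18) and EM1 (-1.46) were 2-fold lower and SESA1 (1.01) 2-fold higher, with a median of -0.27. EM6 had 101 reads in WT and 11 in phyB, EM1 39 and 14, and SESA1 31 and 62. Counting intervals of EM1 (-2.46 to -0.55) and SESA1 (0.37 to 1.69) include differences under 2-fold. Of all models of at least 1 RPKM on average, 51% had ratios below 0, 2.18% were 2-fold lower and 3.2% 2-fold higher. The part of organ proportions, water status and seed remains in the aquaporin values was not tested.

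**Figure D5:**
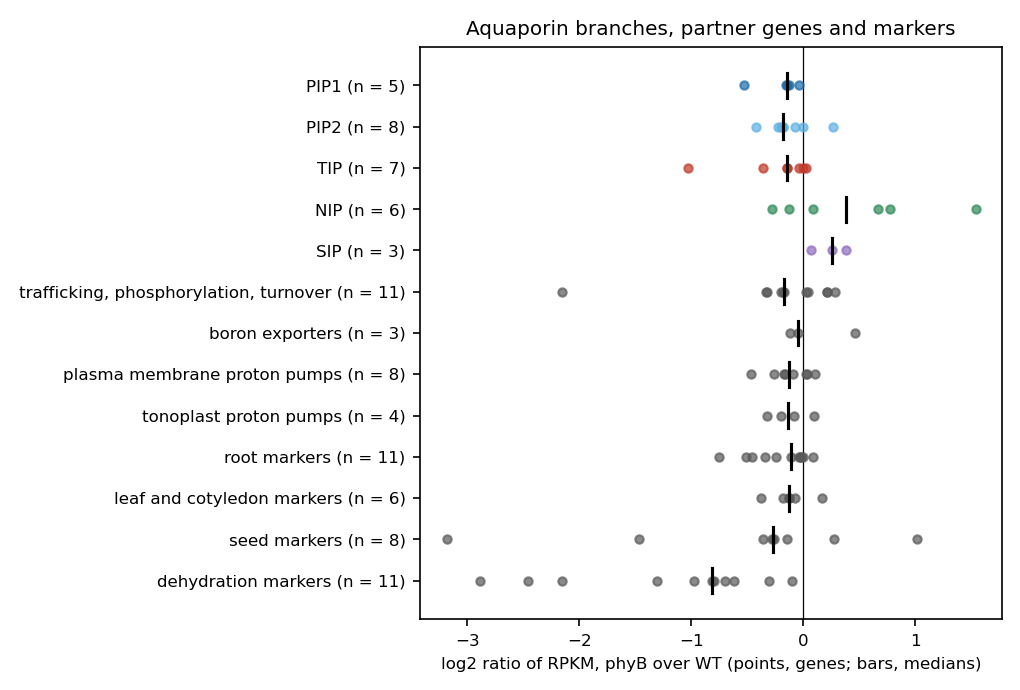
log2 ratio of RPKM, phyB over WT, for measured genes of each aquaporin branch, of partner gene lists and of marker lists, with a black bar at each median. The medians of the PIP1, PIP2 and TIP branches (-0.15, -0.18 and -0.14) stand beside -0.13 and -0.14 for the pumps of the plasma membrane and tonoplast, which turn to 0.059 and 0.0038 with the trend on coding length removed. The dehydration markers have the lowest median, -0.81.

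PHYB itself was at 36.3 RPKM in WT against 14.1 RPKM in phyB, giving a log2 ratio of -1.36. The columns held 33521717 reads in WT and 33201394 in phyB. Titles of the WT samples carry a word for a repeated analysis that those of the mutant lack, so any effect of that difference and one of genotype cannot be told apart.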

How the data were processed

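Oligo(dT)-selected RNA of whole seedlings was sequenced, per the labels' protocols, and TAIR10 is the genome build per the submitters' processing notes. The deposited tables hold 1 column of reads, treated as estimated counts, and 1 column of RPKM per genotype, per the file headers. Not given in the sources used here are the aligner, the counter, strand use and whether a column sums both samples. The authors wrote 0.5 where a model had 0 reads, and these entries were set to 0. The coding length was derived from the reads, RPKM and total of the WT column. With it, the deposited RPKM of phyB equal reads over coding length and column total, as recomputed. For WT this equality holds by construction, apart from rounding of the length. Samples were grouped by the labels.

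The members, taken by family membership, and the gene lists were chosen with earlier results of these data known. Values are log2 ratios of phyB to WT on deposited RPKM, without pseudocount. They have exact 95% counting intervals (Clopper-Pearson, conditional on the total of both read counts). Intervals of summed levels were computed from summed reads, while the ratios beside them are of summed RPKM. PCR copies are not independent molecules, so intervals and 3-read floors cover counting error only. The comparison covers genes at 1 RPKM or more on average, by the size of the difference and without a test. All members are named, and in other lists those at 2-fold or else the most abundant. SYP121, SYP61, BOR1, BOR2, BOR3, BOR4, RBCS1A and the markers at the ends of the root range were added after their values were seen. The coding length implied by RPKM equalled a RefSeq coding length for all 35 members and for 96.8% of 26710 nuclear models. Alternatives were RLE, TMM and upper-quartile factors (edgeR 4.0.16), removal of a lowess trend on coding length (span 0.3, statsmodels 0.14.6), log2(RPKM + 1) and other filters. Intervals were checked on simulated data.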

Additional observations from a re-analysis of the deposited data

How the results depend on the processing

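RLE and TMM factors left the counts of members at 2-fold and 1.5-fold as they were, and the summed levels within their counting intervals. With either factor the family median stayed within the counting interval of its middle member, PIP1-2 (-0.135 to -0.113). That interval is the counting error of 1 gene and not of the median. Upper-quartile factors, which raise every log2 ratio by 0.046, left no member 2-fold lower (0, with TIP2-3 at -0.98), and moved the log2 ratio of the sum to -0.14 for PIP1, -0.19 for PIP2 and -0.067 for TIP and the family median to -0.078. With the trend on coding length removed, the sums stood at -0.24 for PIP1, -0.29 for PIP2, -0.19 for TIP and 0.10 for SIP, and the median at -0.17. On the log2(RPKM + 1) scale the median was -0.082. With no filter beyond 1 read it was -0.10, and 2 members instead of 1 were 1.5-fold lower, since TIP3-1 entered. At a mean of at least 5 RPKM 0 members were 2-fold higher, since NIP2-1 left. None of the PIP1, PIP2, TIP, NIP and SIP sums changed direction under the 3 scaling factors or with the length trend removed. The sums of TIP1 and TIP2 genes were not recomputed. Of 32 members with reads, the ratio left its counting interval for 17 with the length trend removed and for 15 with upper-quartile factors. It changed sign for 5 and 2 of them, all near 0, and RLE factors turned PIP2-8 and TIP1-1. The depth limits NIP2-1, TIP3-1, TIP3-2 and the members at or near 0 reads. No paired analysis was possible because the value columns, 1 per genotype, carry no replicate number, and leaving out a replicate was not run for that reason.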
